A study of Mus musculus with 342 samples.

Results

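CC021/Unc is 1 of 44 inbred Collaborative Cross mouse lines whose livers were profiled after a single dose of TAK-875 (fasiglifam), a compound that activates GPR40, a receptor for free fatty acids, and was developed as a diabetes drug. The arrays whose line label reads CC021/Unc were taken, which gave 8 of 342 arrays in the series. They come from 4 male mice given TAK-875 at 600 mg/kg and 4 male mice given the vehicle alone, methylcellulose at 0.5% w/v in water. All mice were about 8 to 10 weeks old and were dosed by oral gavage at 10 ml/kg, and livers were taken 24 hours later. TAK-875 and vehicle mice were dosed in pairs, and CC021/Unc holds study pairs 5, 6, 7 and 8, called pairs 1 to 4 below after their number within the line. CC021/Unc is 1 inbred line, so its 4 pairs show how far mice of that line vary and not how far lines vary. The other 43 lines, with 334 arrays of the same 2 treatments, served as the comparison.

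TAK-875 left clinical development because of liver injury, and it is known to inhibit transporters that carry bile acids across the hepatocyte membrane. Hepatocytes make bile acids from cholesterol, and Cyp7a1 and Cyp8b1 are the hydroxylases that set the amount and the kind made. Fatty acid ligands of the nuclear receptor PPARA raise genes of fatty acid breakdown, electrophiles raise glutathione transferases through NRF2, and misfolded protein in the endoplasmic reticulum raises chaperones such as Hspa5 through the unfolded protein response.

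Liver RNA was hybridised to Affymetrix HT MG-430 PM arrays, and the values are RMA levels on the log2 scale, on which a difference of 1 is a doubling. RMA levels compare 1 gene between samples and not different genes with each other. One probe set stood for each of 9093 genes. A gene was called at an adjusted p under 0.05, from limma fitted to the pair differences of all 44 lines and adjusted over all genes. The response of a gene is the mean TAK-875 minus vehicle difference over the 4 pairs, given with its standard error (SE) from limma. This SE uses a spread between pairs pooled over all 44 lines, so it does not measure the scatter of the 4 pairs of CC021/Unc. Levels are given with the SD over 4 mice.

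Hepatocyte-defining genes, 7 measured, averaged 12.76 to 12.82 in TAK-875 mice and 12.73 to 12.83 in vehicle mice. They include Fabp1 and Serpina1a, the latter on a probe set that may cross-hybridise. No other tissue was set beside them, so these levels describe the samples and do not test the label of liver. Array medians over the 9093 genes lay between 6.26 and 6.40. Pair 4 stood apart. Its vehicle array had a median correlation of 0.974 with the other vehicle arrays of the line and 0.982 with the TAK-875 arrays, while vehicle arrays 1 to 3 had 0.982 to 0.988 within their group. The TAK-875 array of pair 4 had 0.980 within its group, against 0.988 for the other 3. Over all genes the differences of pair 4 correlated with those of pairs 1, 2 and 3 by -0.08, 0.17 and -0.05, while pairs 1 to 3 correlated with each other by 0.32 to 0.57. Acute phase genes, which the liver raises in inflammation, were high in vehicle mouse 4: 21 of 33 measured members had their highest vehicle value there, as did 29.3% of all genes. Their part in the results was not tested, and the main counts below are also given without pair 4.

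In CC021/Unc 85 of 9093 genes were called (0.935%), 43 higher (0.473%) and 42 lower (0.462%) in TAK-875 mice than in vehicle mice. Of these, 23 changed at least 2-fold, 12 upward and 11 downward, and the median size was 0.80. The line ranked 14th of 44 by the number of called genes, in a range over lines of 0 to 1403. All pairs had the same sign in 83 of the 85 genes, and in 77 the 4 TAK-875 values did not overlap the 4 vehicle values, as in 12.5% of all genes. The number rested on single pairs: it was 35 without pair 1, 10 without pair 2, 108 without pair 3 and 51 without pair 4, which included 44 of the 85. Just 10 genes stayed called whichever pair was left out: Adssl1, Gstt2, Fmo5, Anxa7, Cds2 and Tm4sf4 were higher, and Cyp8b1, Dio1, Car1 and Pipox were lower. Anxa7, Cds2 and Tm4sf4 are named after their values were seen.

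Genes of fatty acid and lipid handling included the largest rise. Acot3, a peroxisomal acyl-CoA thioesterase and PPARA target, had levels of 6.89, 8.74, 6.79 and 9.05 in TAK-875 mice, against 4.66, 4.96, 5.04 and 4.70 in vehicle mice. All TAK-875 values were above all vehicle values, and the TAK-875 mice of pairs 2 and 4 were the highest. The response of Acot3 was 3.03 (SE 0.67, adjusted p = 0.00411), the largest rise on the array in CC021/Unc, and its probe set may also bind close relatives of the gene. Vnn1, a pantetheinase and PPARA target, had 7.87, 8.32, 8.35 and 8.50 in TAK-875 mice, against 6.59, 6.82, 6.80 and 7.22 in vehicle mice, a response of 1.40 (SE 0.37, adjusted p = 0.0287). Its groups did not overlap, and the 4 pairs lay between 1.28 and 1.56. Lpl, the lipase that releases fatty acids from lipoproteins and is low in healthy adult liver, had 8.12, 7.20, 7.93 and 6.89 in TAK-875 mice, against 5.29, 4.92, 6.39 and 6.85 in vehicle mice. Vehicle mouse 4 almost reached the TAK-875 values, and the pair differences of Lpl were 2.83, 2.28, 1.54 and 0.04. The mean response was 1.67 (SE 0.40, adjusted p = 0.0118). Pctp, which carries phosphatidylcholine between membranes, averaged 9.18 ± 0.17 in TAK-875 mice and 8.16 ± 0.15 in vehicle mice (SD, n = 4 each), a rise of 1.01 (SE 0.22, adjusted p = 0.00293).

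**Figure D1:**
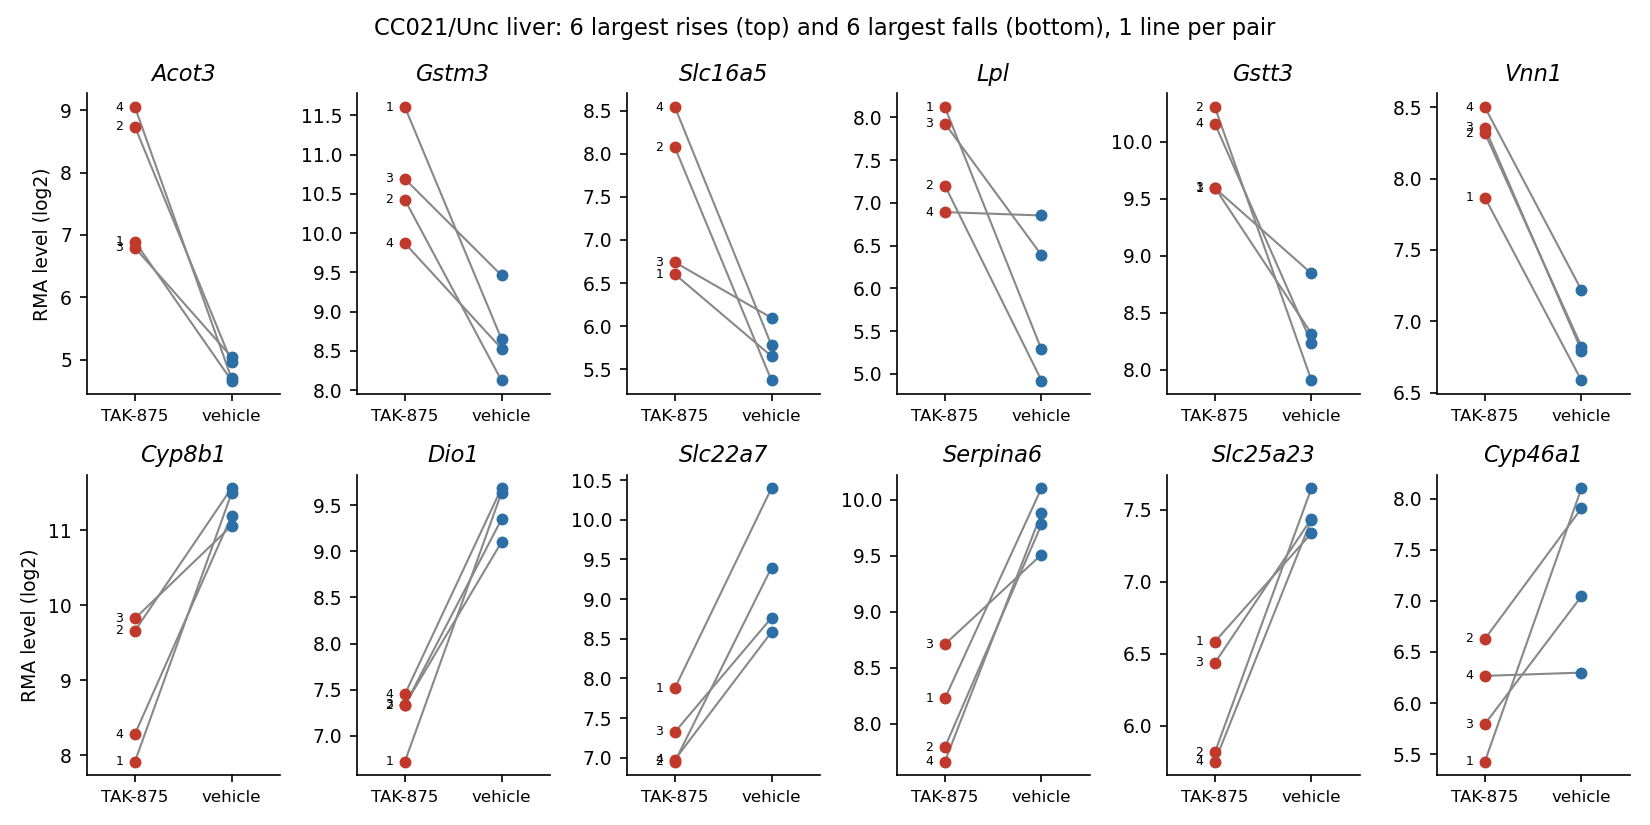
RMA levels (log2) of the 6 genes with the largest rises and the 6 with the largest falls among called genes that moved one way in all 4 pairs of CC021/Unc, with TAK-875 mice on the left of each panel, vehicle mice on the right and a line joining the mice of a pair (numbered 1 to 4). The groups do not overlap except in Cyp46a1, and in Lpl the line of pair 4 is nearly flat (0.04).

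Across the PPARA list the shift was small. Of 40 measured members 2 were called higher (Acot3 and Vnn1) and 0 lower, and the median response was 0.23, against 0.02 over all genes. The other lines had a median of 0.27 over the same members. Without pair 4 no member was called. Acot1 had a response of 1.59 and Acot2 of 1.29, with adjusted p = 0.193 and 0.0619. Ehhadh, an enzyme of peroxisomal beta-oxidation, had 0.65 (adjusted p = 0.147), and Cyp4a10, a fatty acid hydroxylase, had 0.36 (adjusted p = 0.472). Fgf21, a fasting hormone of the liver, had -0.30, and Angptl4, an inhibitor of Lpl, had -0.03. Before treatment 18 members were higher and 4 lower in CC021/Unc vehicle mice than in vehicle mice of the other lines, where 22.8% of all genes were higher and 12.3% lower.

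Called rises included 3 glutathione transferases, which conjugate electrophiles. Gstm3, a mu-class glutathione transferase, had 11.60, 10.42, 10.69 and 9.87 in TAK-875 mice, against 8.65, 8.12, 9.46 and 8.53 in vehicle mice. No TAK-875 value fell below a vehicle value. The probe set of Gstm3 may also bind close relatives of the gene. The response of Gstm3 was 1.96 (SE 0.51, adjusted p = 0.0232), the highest among the 44 lines, whose other 43 averaged -0.03 (range -1.56 to 1.00). The difference between CC021/Unc and the other lines was 1.99 and was not called (adjusted p = 0.113). The theta-class transferases Gstt3 and Gstt2 had responses of 1.59 (SE 0.34, adjusted p = 0.00266) and 1.11 (SE 0.18, adjusted p = 3.5e-05). Gstt2 averaged 11.30 ± 0.08 in TAK-875 mice and 10.20 ± 0.24 in vehicle mice (SD, n = 4 each), so the groups were well separated. Nqo1, a quinone reductase and textbook NRF2 target, had 7.23, 7.34, 7.10 and 6.77 in TAK-875 mice, against 6.06, 5.30, 6.12 and 5.91 in vehicle mice, a response of 1.26 (SE 0.29, adjusted p = 0.00638) with no overlap.

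Of 29 measured NRF2 targets, 2 were called higher (Gstm3 and Nqo1) and 0 lower, with a median of 0.20 in CC021/Unc and 0.05 in the other lines. Srxn1, which repairs oxidised peroxiredoxins, had a response of 1.04 (adjusted p = 0.0602), and Hmox1, haem oxygenase, had -0.06. Among 29 targets of the xenobiotic receptors CAR and PXR, 2 were called higher (Gstm3 and Gstt3) and 0 lower, with a median of 0.18, against 0.00 in the other lines. Cyp2b10, the standard CAR marker, had 1.05 (adjusted p = 0.502), and Cyp3a11, the standard PXR marker, had 0.29 (adjusted p = 0.424). Gstm3 belongs to both lists, so they are not independent. Without pair 4 Gstm3 was not called, which left Nqo1 in the first list and Gstt3 in the second.

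Other called rises included transporters and an enzyme of purine metabolism. Slc16a5 and Slc16a7, of the monocarboxylate transporter family, had responses of 1.77 (SE 0.47, adjusted p = 0.033) and 1.07 (SE 0.29, adjusted p = 0.0443). The pairs of Slc16a5 were uneven, 2.70 and 2.76 in pairs 2 and 4, 0.95 and 0.64 in pairs 1 and 3. Adssl1, an adenylosuccinate synthase of the purine nucleotide cycle best known from muscle, had 8.42, 8.53, 8.34 and 9.02 in TAK-875 mice, against 7.50, 7.29, 7.18 and 7.04 in vehicle mice. The groups were far apart, and the response was 1.33 (SE 0.21, adjusted p = 1.7e-05), the smallest adjusted p of the rises. Of 7 measured muscle markers limma called 0, with 0 at an unadjusted p under 0.05. Of these markers 4 were positive and 3 negative, and the median response was 0.30, against -0.01 in the other lines. Their mean level was 3.35 to 4.17 in TAK-875 mice and 3.35 to 3.59 in vehicle mice. Myh4, a fast muscle myosin, was positive in all 4 pairs but not called (adjusted p = 0.56). Its largest difference, 1.44, was in pair 4, where that of Adssl1 was also the largest. Other markers differed: Tnnc2, a muscle troponin, had its largest difference, 1.57, in pair 1 and had -0.54 in pair 4. The list median was 0.34 in pair 1 and 0.18 in pair 4. The part of muscle RNA in the level of Adssl1 was not tested.

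Genes of the unfolded protein response were mostly positive, and few passed the test one by one. Of 34 measured members of the unfolded protein response, 3 were called higher (Creld2, Hspa5 and Calr) and 0 lower, 32 were positive and the median was 0.37. Over all genes 0.473% were called higher, 4815 of 9093 were positive and the median was 0.02. In the other lines the same members had a median of 0.04, and the list median of CC021/Unc was the highest of 44 lines. The pairs were uneven: the list median was 0.67 in pair 1, 0.48 in pair 2, -0.02 in pair 3 and 0.31 in pair 4, and 16 of 34 members were positive in pair 3.

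An element long known from promoters of these genes, the endoplasmic reticulum stress element, reads CCAAT, then 9 bases of any kind, then CCACG. It was searched on both strands in the 300 bases around each gene start of the RefSeq promoter table (GRCm38.p6), from 250 before to 50 after. Among 29 members of the list with a promoter in the table, 10 held it (34.5%), as did 37 of 27025 genes in all (0.137%), these 10 included. Because the element is known from such genes, its share describes how the list was made and not the response to TAK-875. The part of the element in the response was not tested. All 3 called members held it, and their windows are shown for that reason, 5′ to 3′ on the strand of the gene, with the match in capitals. In Hspa5 the match reads forward, and in Creld2 and Calr it stands as its reverse complement. The windows lie at chr2:34771985-34772083 on the plus strand for Hspa5, at chr15:88819480-88819578 on the plus strand for Creld2 and at chr8:84847035-84847133 on the minus strand for Calr.
Hspa5: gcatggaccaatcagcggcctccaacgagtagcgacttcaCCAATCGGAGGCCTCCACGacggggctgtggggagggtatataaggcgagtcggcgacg
Creld2: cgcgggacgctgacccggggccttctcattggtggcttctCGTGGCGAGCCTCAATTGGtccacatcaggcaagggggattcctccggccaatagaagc
Calr: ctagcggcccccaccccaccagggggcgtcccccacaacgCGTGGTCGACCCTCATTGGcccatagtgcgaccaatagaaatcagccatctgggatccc
The median response was 0.40 in the 10 members with the element and 0.33 in the 19 members whose promoter window lacked these letters.

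Creld2, a secreted protein of the endoplasmic reticulum, had 10.18, 10.44, 9.45 and 10.97 in TAK-875 mice, against 8.65, 8.44, 9.73 and 8.89 in vehicle mice. In pair 3 the vehicle mouse was the higher, so the groups overlapped, and the other 3 pairs differed by 1.52 to 2.08. Its response was 1.33 (SE 0.35, adjusted p = 0.0305), rank 4 of the 44 lines, of which CC017/Unc was the highest with 2.02. Hspa5, the main chaperone of the compartment, had 10.79, 10.76, 10.35 and 10.91 in TAK-875 mice, against 9.39, 8.97, 10.18 and 10.35 in vehicle mice. TAK-875 mouse 3 was just above vehicle mouse 4, and pairs 1 and 2 carried the larger differences, 1.40 and 1.78. Hspa5 rose by 0.98 (SE 0.26, adjusted p = 0.0309), the highest of the 44 lines by a small margin over CC005/TauUnc with 0.93. The probe set of Hspa5 may also bind close relatives of the gene. The calreticulin gene Calr had 12.59, 12.59, 12.59 and 12.60 in TAK-875 mice, against 12.14, 12.15, 12.27 and 12.17 in vehicle mice, a small and even rise of 0.41 (SE 0.11, adjusted p = 0.0255), ahead of CC011/Unc with 0.35. CC007/Unc, the line whose response over all genes was most like that of CC021/Unc, had 0.77 for Creld2, 0.62 for Hspa5 and 0.31 for Calr. Without the pairing, Hspa5 and Calr had adjusted p = 0.0687 and 0.0521 in CC021/Unc. Over all alternatives run, the adjusted p ranged from 0.012 to 0.641 for Hspa5 and from 0.00143 to 0.259 for Calr. None of the 3 was called without pair 1, without pair 2 or without pair 4, and without pair 4 the list median was 0.43.

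Members that missed the threshold included Hsp90b1, the HSP90 of the compartment, with 0.95 (adjusted p = 0.101), and Dnajb9, a co-chaperone of Hspa5, with 0.76 (adjusted p = 0.0972). Manf had 0.74 (adjusted p = 0.0731). Xbp1, the transcription factor whose spliced form drives many of these genes, had 0.18 (adjusted p = 0.625). Derl3 had the smaller value in CC021/Unc, with 0.26 in CC021/Unc and 0.85 in the other lines. No member was called different from the other lines. In CC021/Unc vehicle mice 0 of 34 members were called higher and 15 lower than in vehicle mice of the other lines. Over all genes 22.8% were called higher and 12.3% lower. The median difference of the list was -0.28 in vehicle mice and 0.03 in TAK-875 mice. Against the spread between line means 5 of 9093 genes were called at rest, none of them in this list. The response and the vehicle comparison share the 4 CC021/Unc vehicle arrays.

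**Figure D2:**
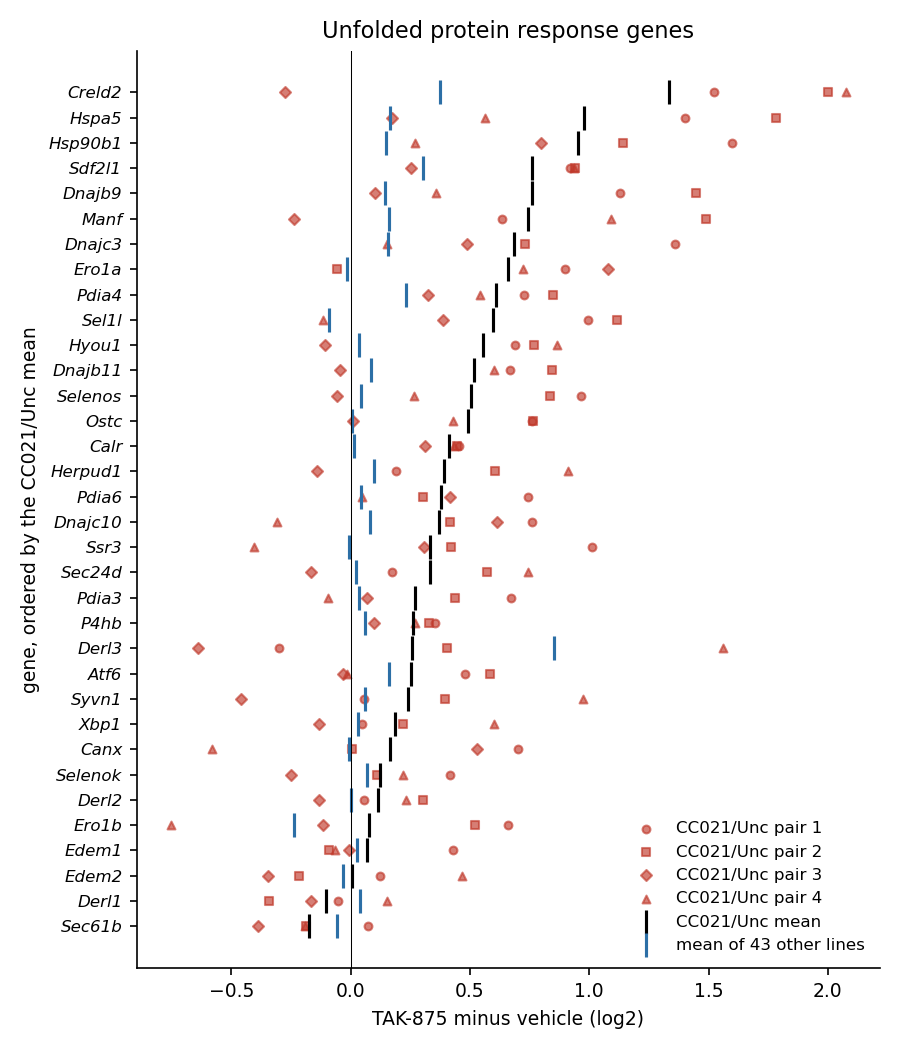
TAK-875 minus vehicle differences (log2) of the 34 measured genes of the unfolded protein response, with the 4 pairs of CC021/Unc as red symbols, their mean as a black bar and the mean of the 43 other lines as a blue bar. The black bars lie above 0 for 32 genes, and the diamonds of pair 3 lie about 0 (16 of 34 positive).

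Few other genes of protein quality control were called. None of 20 heat shock genes of the cytosol was called, with 19 positive, 11 at an unadjusted p under 0.05 and a median of 0.44, against 0.15 in the other lines. Over all 9093 genes 4815 were positive and 1119 had an unadjusted p under 0.05, shares to set beside the counts of this paragraph. Hsp90aa1 had a response of 1.15 (adjusted p = 0.544) and Hsph1 of 1.04 (adjusted p = 0.253). Of 36 proteasome genes 33 were positive, with a median of 0.25. Psmd13, a lid subunit, was called higher (8.87 ± 0.04 in TAK-875 mice and 8.39 ± 0.14 in vehicle mice, SD, n = 4 each, adjusted p = 0.0197). Psme1, a subunit of the interferon-inducible activator, was called lower, with 9.98 ± 0.08 in TAK-875 mice and 10.51 ± 0.12 in vehicle mice (adjusted p = 0.00244). Without pair 4 Psme1 remained called and Psmd13 did not. Of 27 genes of the integrated stress response none was called, 3 had an unadjusted p under 0.05, and Ddit3 had 0.65 (adjusted p = 0.308).

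The largest fall was in bile acid synthesis. Cyp8b1, the hydroxylase that directs synthesis to cholic acid, had 7.91, 9.66, 9.82 and 8.28 in TAK-875 mice, against 11.49, 11.56, 11.06 and 11.19 in vehicle mice. Every TAK-875 value was more than 1 unit below every vehicle value, with pairs 1 and 4 farthest apart. The response was -2.41 (SE 0.39, adjusted p = 3.3e-05), a 5.31-fold fall. Cyp7a1, the rate-limiting enzyme of the pathway, had 5.82, 6.04, 6.65 and 5.06 in TAK-875 mice, against 6.50, 6.94, 7.47 and 8.23 in vehicle mice. It was lower in all 4 pairs, but 1 TAK-875 value lay within the vehicle range, and -1.39 (SE 0.83) was not called (adjusted p = 0.493). Cyp46a1, a cholesterol hydroxylase best known from brain, had 5.43, 6.63, 5.79 and 6.27 in TAK-875 mice, against 8.10, 7.91, 7.05 and 6.30 in vehicle mice. Its groups overlapped through pair 4, where the values were nearly equal, and the response was -1.31 (SE 0.32, adjusted p = 0.0143). In all, 2 of 21 measured genes of bile acid synthesis were called lower and 0 higher, with a median of -0.04, against -0.12 in the other lines, and both remained called without pair 4. Nr0b2, the repressor that the bile acid receptor induces, had 0.19 (adjusted p = 0.888).

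Among 18 bile acid and organic anion transporters 1 was called, with and without pair 4. Slc22a7, an organic anion transporter of the sinusoidal membrane, had 7.88, 6.95, 7.33 and 6.98 in TAK-875 mice, against 10.40, 9.40, 8.76 and 8.58 in vehicle mice. The groups did not overlap, vehicle mouse 1 was the highest, and the response was -2.00 (SE 0.44, adjusted p = 0.00438). Abcb11, the bile salt export pump, had 9.46, 8.51, 9.30 and 8.67 in TAK-875 mice, against 8.02, 8.17, 8.03 and 9.14 in vehicle mice. It was higher with TAK-875 in pairs 1 to 3 and lower in pair 4, where the vehicle value stood far above the other 3, and the mean of 0.65 (SE 0.35) was not called (adjusted p = 0.449). Abcc2, the canalicular conjugate exporter, had 0.07, and Slc10a1, the main sinusoidal bile acid importer, averaged 11.19 in TAK-875 mice and 11.20 in vehicle mice.

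Dio1 and Serpina6 were also called lower. Dio1, the deiodinase that activates thyroid hormone, had 6.72, 7.33, 7.33 and 7.45 in TAK-875 mice, against 9.64, 9.35, 9.10 and 9.69 in vehicle mice. A gap of 1.65 separated the groups, and Dio1 fell by 2.24 (SE 0.43, adjusted p = 0.00083). Serpina6, the corticosteroid-binding globulin, had 8.23, 7.79, 8.71 and 7.67 in TAK-875 mice, against 10.10, 9.78, 9.51 and 9.88 in vehicle mice. Its groups were also apart, with pair 3 the closest, and the response was -1.72 (SE 0.39, adjusted p = 0.00638). It was the 1 called member of 14 glucocorticoid-related genes, of which 7 were positive and 7 negative, with a median of -0.05, and it was not called without pair 4.

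Other called falls included a mitochondrial carrier and enzymes of several pathways. Slc25a23, a carrier of adenine nucleotides into mitochondria, fell by 1.32 (SE 0.26, adjusted p = 0.00083). Pipox, a peroxisomal oxidase of pipecolic acid and sarcosine, averaged 8.50 ± 0.32 in TAK-875 mice and 9.47 ± 0.10 in vehicle mice (SD, n = 4 each), with adjusted p = 0.00016. Car1, a carbonic anhydrase, averaged 4.41 ± 0.20 in TAK-875 mice and 5.61 ± 0.33 in vehicle mice (adjusted p = 0.00083), and Fn3k, a kinase that removes sugar adducts from proteins, averaged 5.95 ± 0.45 in TAK-875 mice and 7.20 ± 0.35 in vehicle mice (adjusted p = 0.0118). These 4 genes did not overlap between the groups. 1700001C19Rik, Ttc39c and N4bp2l1 fell by 1.17, 1.07 and 1.06 (adjusted p = 0.00244, 0.0202 and 0.0474). Fbp1, an enzyme of gluconeogenesis, was the 1 called member of 14 genes of gluconeogenesis and fasting, with a small and tight fall of 0.30 (SE 0.07, adjusted p = 0.0119), and it was not called without pair 4.

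Few markers of other cell types were called. Of 16 endothelial markers Stab2, a scavenger receptor of the sinusoids, was called lower, with 7.50 ± 0.13 in TAK-875 mice and 8.11 ± 0.07 in vehicle mice (SD, n = 4 each, adjusted p = 0.0348), and it was not called without pair 4. Over the list 10 markers were negative and 6 positive, with a median of -0.13, against -0.07 in the other lines. In whole liver, fewer cells of a type and less RNA per cell cannot be told apart. Of 15 markers of Kupffer cells and macrophages none was called, and 2 had an unadjusted p under 0.05, as had 1119 of all 9093 genes. Their mean level was 5.75 to 6.05 in TAK-875 mice and 6.00 to 6.15 in vehicle mice. Of 6 B cell and MHC class II genes 5 were negative and none was called, with mean levels of 4.97 to 5.23 in TAK-875 mice and 5.37 to 6.03 in vehicle mice. These list means did not overlap, while the member H2-Eb1 did overlap between the groups. Means of other lists did not overlap either. The PPARA list had 8.99 to 9.27 in TAK-875 mice and 8.70 to 8.88 in vehicle mice. Red blood cell markers had 5.02 to 5.40 in TAK-875 mice and 5.46 to 5.72 in vehicle mice. The number of such lists was not counted. The list median was -0.65, against -0.34 in the other lines. By pair the list median was -0.92 in pair 1, -0.50 in pair 2, -0.30 in pair 3 and -0.20 in pair 4. Of 26 interferon-stimulated genes 18 were negative and none was called, with a median of -0.33, against -0.08 in the other lines. RMA gives no zero, so no marker can be read as absent, and the part of these cells in the falls was not tested.

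The genes called in CC021/Unc mostly had the sign of the panel. Over the 9093 genes the CC021/Unc response and the mean response of the other lines had a Pearson correlation of 0.464 and a Spearman correlation of 0.400, a description across genes, which are not independent and share array chemistry. Of the 85 called genes 83 had the sign of the other lines' mean, and 71 were also called there, where 2354 of 9093 genes were called (25.9%). The share of all genes with the sign of the other lines' mean was not counted. Without pair 4 the Pearson correlation was 0.328.

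**Figure D3:**
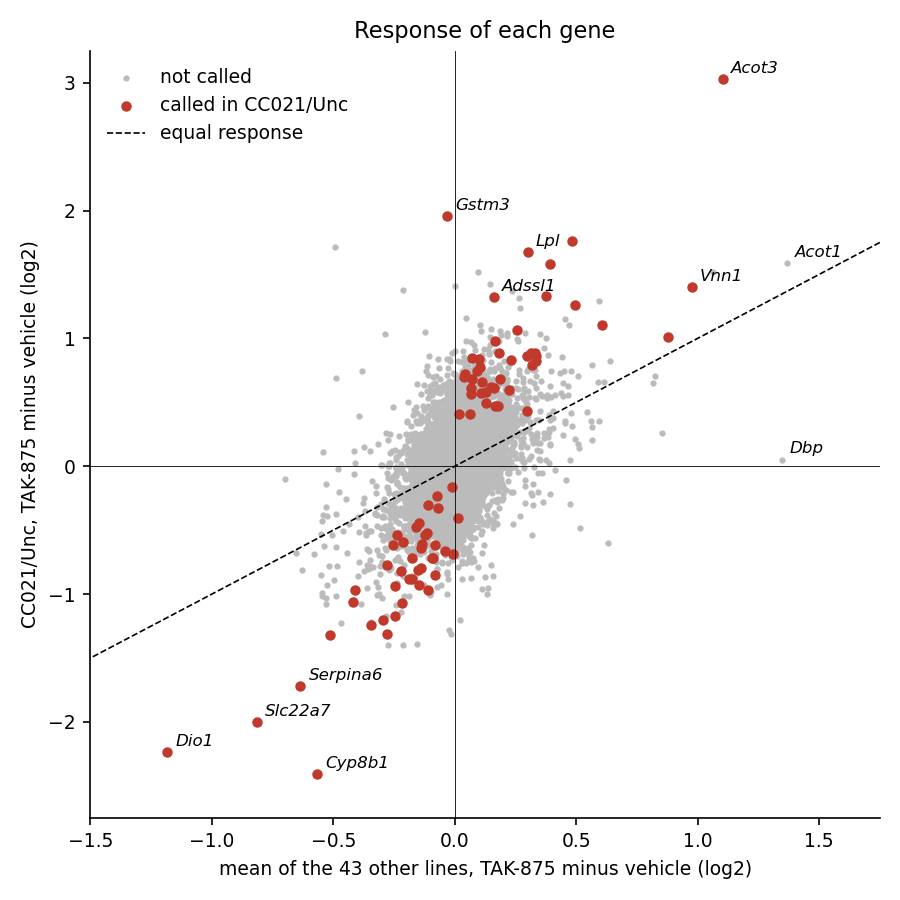
Response of each of 9093 genes (TAK-875 minus vehicle, log2), with CC021/Unc on the vertical axis and the mean of the 43 other lines on the horizontal axis, the 85 genes called in CC021/Unc in red, and a dashed line of equal response. Red points lie in the upper right and lower left except 2.

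The genes that led the panel had the same sign in CC021/Unc. Of the 10 genes with the largest mean rises in the other lines, 10 were positive in CC021/Unc, 6 were larger there and 3 were called (Acot3, Vnn1 and Pctp). Acot1 had 1.59 in CC021/Unc and 1.37 in the other lines, and 2010003K11Rik had 1.52 in CC021/Unc and 1.06 in the other lines. Chrna2, a nicotinic receptor subunit, had 0.71 in CC021/Unc and 0.83 in the other lines. The circadian output gene Dbp was far smaller, with 0.05 in CC021/Unc and 1.35 in the other lines, and its TAK-875 values of 3.15 to 5.45 covered its vehicle values of 3.52 to 4.77. Of the 8 genes with the largest falls, 8 were negative in CC021/Unc, 7 were larger in size there and 4 were called (Dio1, Slc22a7, Serpina6 and Cyp8b1). Saa3, an acute phase gene, had -0.10 in CC021/Unc and -0.70 in the other lines. Pklr, the liver pyruvate kinase, had -0.69 in CC021/Unc and -0.58 in the other lines. Without pair 4 none of the 10 leading rises was called, and Dio1, Slc22a7 and Cyp8b1 were called among the falls.

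By the correlation of line responses over 9093 genes, the lines most like CC021/Unc were CC007/Unc (0.607), CC070/TauUnc (0.471) and CC063/Unc (0.459). In these lines 432, 42 and 2 genes were called.

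A direct test of the CC021/Unc response against the mean of the other 43 lines called 3 genes (0.033%). Adssl1 differed by 1.16 (SE 0.21, adjusted p = 0.00106). Its response of 1.33 in CC021/Unc stood just above the next line, CC052/GeniUnc with 1.26, while the other lines averaged 0.16 (SD 0.37), and 19 of them were negative. Fmo5, a flavin monooxygenase of the liver, had 11.62, 11.82, 11.30 and 11.84 in TAK-875 mice, against 10.67, 10.84, 10.80 and 10.91 in vehicle mice. Its groups did not overlap, and the response was 0.84 (SE 0.16), against 0.10 in the other lines, which reached 0.48 at most. The difference was 0.74 (SE 0.16, adjusted p = 0.0225), and its probe set may also bind close relatives. Averaging its 3 probe sets ended the call for Fmo5 (adjusted p = 0.115), as did centring the arrays (adjusted p = 0.0577). Cyp8b1 differed by -1.84 (SE 0.39, adjusted p = 0.0225), with -2.41 in CC021/Unc, -1.95 in the next line, CC011/Unc, and -0.57 on average in the other lines.

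These 3 calls set 1 genotype against the scatter between pairs. Measured against the spread between the 43 line means, limma called 0 of 9093 genes, with 307 at an unadjusted p under 0.05. Without pair 4 the direct test called 0, with 1008 at an unadjusted p under 0.05, against 715 with all pairs. Without pair 1 or pair 2 just Adssl1 was called.

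**Figure D4:**
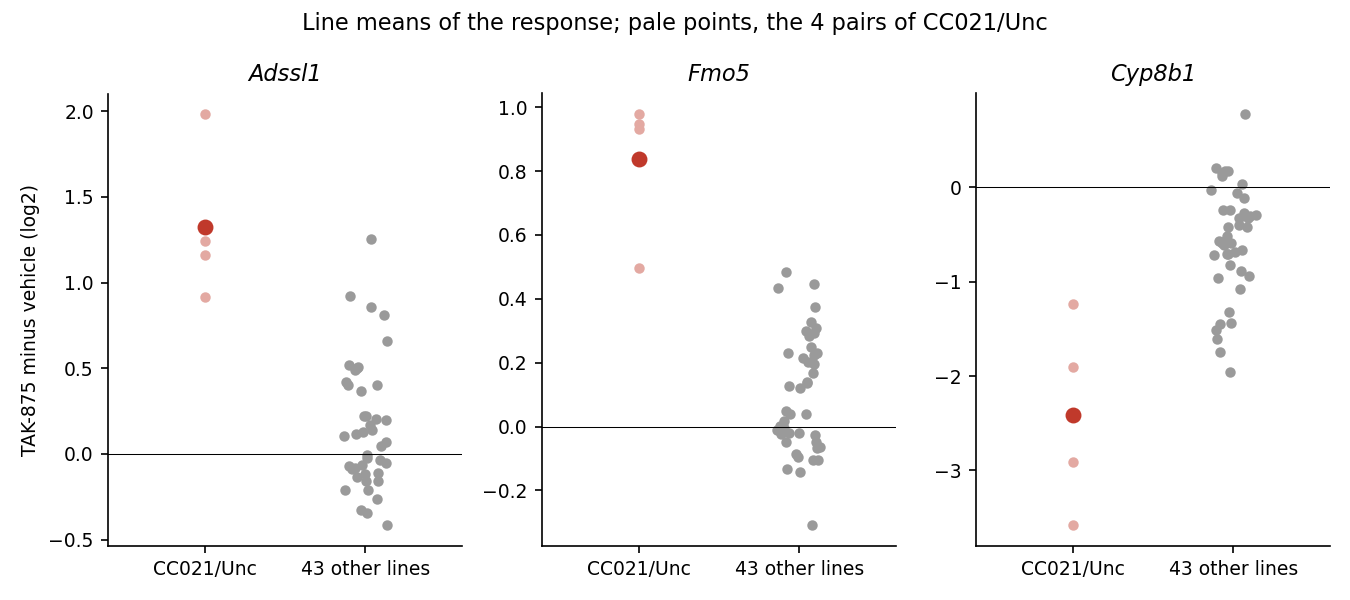
Mean response (TAK-875 minus vehicle, log2) of each line for the 3 genes called different in CC021/Unc, with CC021/Unc as a large red point, its 4 pairs as pale red points and the 43 other lines in grey. CC021/Unc is the highest line for Adssl1 (1.33) and Fmo5 (0.84) and the lowest for Cyp8b1 (-2.41).

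Before treatment the liver of CC021/Unc differed from the other lines in many genes, a comparison of 4 vehicle mice with the vehicle mice of 43 other genotypes. Higher levels were called for 2073 genes (22.8%) and lower levels for 1119 (12.3%), which puts 64.9% of the calls upward. The upward share was 52.6% after each array was centred on its median and 55.7% after quantile normalization. The counts were 1298 higher and 629 lower without vehicle mouse 1, 1350 higher and 575 lower without vehicle mouse 2, and 2130 higher and 1248 lower without vehicle mouse 4. At least 2-fold differences were called for 121 genes upward and 114 downward. Against the spread between line means limma called 5 genes (0.055%). These 5 were Babam2 (0.97), C1qtnf4 (3.26) and Gla (1.81), which were higher, and Fermt2 (-1.22) and Tfg (-0.96), which were lower. All but C1qtnf4 are named after their values were seen.

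Obp2a, an odorant-binding lipocalin, was the most raised gene at rest, with 11.44, 11.21, 10.67 and 10.76 in CC021/Unc vehicle mice, against 5.26 on average in the other lines (range of line means 2.70 to 11.97). CC021/Unc was the fifth highest of 44 lines. Dct, a melanin synthesis enzyme, averaged 9.71 ± 0.13 in CC021/Unc (SD, n = 4) and 5.94 in the other lines, none of which exceeded 9.12. Cenpm, a centromere protein, averaged 8.93 ± 0.37 in CC021/Unc and 5.06 in the other lines. Orm3, an acute phase lipocalin, averaged 10.10 ± 0.30 in CC021/Unc and 6.06 in the other lines. Wfdc2 and Nat8f5 were the highest of 44 lines, by 3.04 and 2.62 over the mean of the other lines. Hamp2, a hepcidin gene whose probe set may cross-hybridise, Ubash3a and Albfm1 were higher by 3.14, 3.07 and 2.99.

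Among the low genes Iigp1, an interferon-inducible GTPase, had 2.85, 2.66, 2.84 and 2.60 in CC021/Unc vehicle mice, against 8.42 on average in the other lines. The lowest other line mean was 2.70, and CC021/Unc was the second lowest of 44 lines. Sult1d1, a sulfotransferase, averaged 4.36 ± 0.42 in CC021/Unc (SD, n = 4), the lowest of 44 lines, and 7.17 in the other lines. Both of its probe sets were low, by 2.81 and 2.82. Slc3a1, a subunit of an amino acid transporter, averaged 4.47 ± 0.22 in CC021/Unc and 8.15 in the other lines, and Slco1a4, an organic anion transporter, averaged 2.81 ± 0.10 in CC021/Unc and 5.34 in the other lines. Mt1, the metal-binding metallothionein, averaged 6.85 ± 1.12 in CC021/Unc and 9.76 in the other lines, but its second probe set was lower by only 0.15, so the level of Mt1 is uncertain. Ugt3a2, Abhd1, the ribosomal protein gene Rpl3 and 9130409I23Rik differed from the other lines by -3.75, -2.65, -2.58 and -2.49. Sequence variants were not examined here, and a difference in sequence under a probe and a difference in transcript level cannot be told apart in this comparison.

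Of the 20 genes named for their vehicle level, 20 were on the same side of the other lines in TAK-875 mice. The share of all genes on the same side was not counted. In the response 0 of the 20 were called, which says little about them, since 0.935% of all genes were called. The level of Cyp4f14, a fatty acid hydroxylase, was split within the line. It had 7.02, 4.84, 3.94 and 4.58 in TAK-875 mice and 8.02, 8.13, 4.48 and 4.67 in vehicle mice, so 3 of 8 mice lay at least 2.18 above the other 5. The 3 high mice were both mice of pair 1 and the vehicle mouse of pair 2. The other lines averaged 8.66 in TAK-875 mice and 9.12 in vehicle mice, and their lowest vehicle line mean was 4.51. The same 3 mice were also the highest of the 8 in Cyp4f13, another P450 of that family, and in the MHC class II gene H2-Eb1, a member of the B cell list above, both on chromosome 17 like Cyp4f14, a likeness looked for after the values were seen. Cyp4f13 had 7.91, 7.55, 7.45 and 7.55 in TAK-875 mice, against 8.76, 8.84, 7.88 and 7.87 in vehicle mice, and was called lower (-0.72, SE 0.16, adjusted p = 0.00526). H2-Eb1 had 5.29, 4.02, 4.55 and 4.74 in TAK-875 mice, against 6.17, 5.98, 4.72 and 4.91 in vehicle mice. The likeness did not extend to H2-Aa, another class II gene of that list on chromosome 17, whose probe set may also bind relatives. H2-Aa had 5.41 in TAK-875 mouse 1, against 6.38, 6.14, 6.03 and 6.28 in the vehicle mice. How many other genes set the same 3 mice highest was not counted. Whether the mice of the line differ in genotype on chromosome 17 was not tested.

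**Figure D5:**
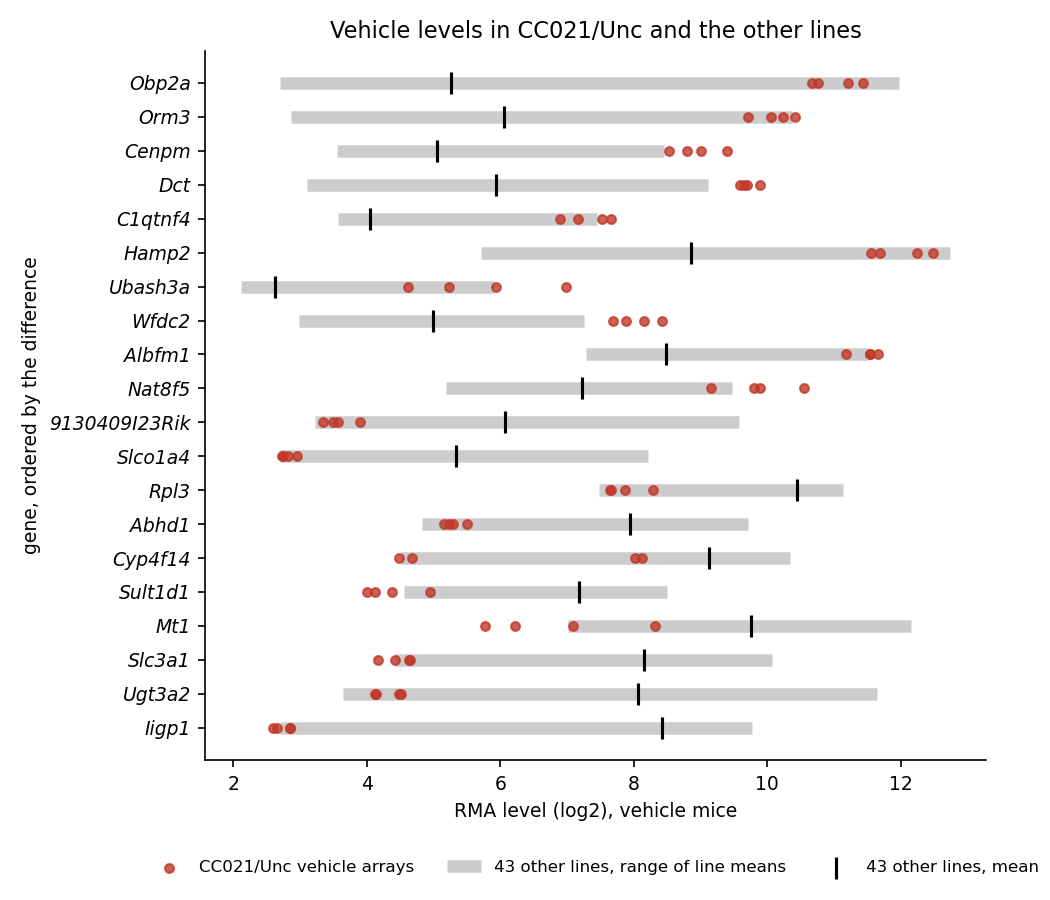
RMA levels (log2) of the 20 genes with the largest called differences between CC021/Unc vehicle mice (red points, 4 mice) and the vehicle mice of the other lines (black bar, mean, and grey band, range of 43 line means). The mean of CC021/Unc is the highest or lowest of 44 lines for 6 of the 20 genes, and the points of Cyp4f14 fall at 4.48 to 4.67 and at 8.02 to 8.13.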

How the data were processed

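The deposited values are log2 levels, 1 per probe set and array. Per the submitters' processing notes, the authors used RMA and Affymetrix Power Tools, and versions are not stated. RMA corrects background, normalizes arrays and summarises the probes of a set. Over all probe sets the 342 arrays have medians of 5.40 to 6.22, so other scalings were tried. Scanner signals were not used here and signal over background is unknown, so undetected probe sets stayed in. Of 16397 probe sets, 13083 name 1 gene in the platform's gene table, 261 several and 3053 none. The probe set with the highest mean stood for each of 9093 genes; 611 of these may bind relatives of the gene and 349 may cross-hybridise more widely.

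Pair differences of 171 study pairs were fitted in limma 3.58.1 (R 4.3.3) with 1 mean per line, 127 residual degrees of freedom and eBayes trended on level. Contrasts were CC021/Unc against 0 and against the unweighted mean of 43 lines; vehicle arrays were compared likewise. Tests were two-sided with Benjamini-Hochberg adjustment. On simulated data with 9093 genes the response fit was checked for recovery of known changes. The pairing comes from the labels. As a check, deviations of the 2 mice of a pair from their group means correlated by -0.23, 0.02, -0.11 and -0.41 in pairs 1 to 4. For mice of different pairs the mean correlation was 0.06. By this measure mice of a pair were no more alike than mice of different pairs, so fits without the pairing are also given.

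The genes named by rule were the 12 called genes that rose most and the 12 that fell most with 1 sign in 4 pairs. Up to 10 called genes on each side for the other contrasts and the 10 rises and 8 falls leading the other lines were added. So were up to 4 called members per list (2 if none) and 4 bile acid genes whatever their result. Acot2, Cyp4a10, Fgf21, Angptl4, Srxn1, Hmox1, Cyp2b10, Cyp3a11, Nr0b2, Hsp90b1, Dnajb9, Manf and Xbp1 came from outside these rules. No rule set their choice. Genes marked as named after their values were seen also lie outside the rules. The members and the 38 lists (720 of 930 entries measured) were chosen with earlier results of these data known. Nothing says more of the mice than that they are separate animals of 1 line. Python 3.11.15, numpy 2.4.6, pandas 2.3.3 and matplotlib 3.10.9 made tables and figures. The alternatives were the mean of all probe sets, centred arrays, renewed quantile normalization, leaving out the dimmest 25% of genes, eBayes without trend, leaving out each pair, fits without the pairing, fits of CC021/Unc alone, the spread between lines, and leaving out 6 pairs of other lines.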

Additional observations from a re-analysis of the deposited data

Results flagged for a closer look

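The 3 genes whose response in CC021/Unc was called different from the other lines by a test of the difference itself were Adssl1 (1.16), Fmo5 (0.74) and Cyp8b1 (-1.84).

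In each named gene the 4 TAK-875 and the 4 vehicle values of CC021/Unc were searched for a lowest or highest value whose gap to its nearest neighbour, as a share of the group's range, exceeded Dixon's critical value for 4 values. Of 216 such groups in 108 genes 6 were marked, and chance alone marks about 5% of groups. Abcb11 was high in 1 vehicle mouse (9.14, pair 4) and Pipox in the same mouse (9.61). Dio1 was low in TAK-875 mouse 1 (6.72), and the muscle gene Tnnc2 was high in that mouse (4.44). Aldh3a2, a fatty aldehyde dehydrogenase, was high in TAK-875 mouse 2 (9.98), although its 4 values differed by little. Serpina1a, an antitrypsin gene, was high in TAK-875 mouse 4 (13.02).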

How the results depend on the processing

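The number of called response genes (85 with 43 higher and 42 lower) lay between 78 and 124 under other probe set rules, scalings, filters and eBayes without trend, and was 10 to 108 when 1 pair was left out. It was 35 with the 4 pairs of CC021/Unc alone, 259 with its 8 arrays alone and no pairing, and 192 without 6 pairs of other lines that hold a poorly correlated array, an alternative chosen after seeing the data, of which 85 were shared with the 85. With no replicate block it was 69, of which 68 were shared, 8 of 33 named called genes lost the call (Calr, Hspa5, Lpl, N4bp2l1, Pctp, Slc16a5, Slc16a7 and Vnn1), and the differing genes stayed 3. Genes differing from the other lines numbered 3, against 2 with the mean of all probe sets, 2 with centred arrays (Fmo5 lost its call in both), 6 after quantile normalization, 5 without the dimmest 25% of genes, 8 without the poorly correlated pairs, 0 to 7 with a pair left out and 0 against the spread between lines. Vehicle differences numbered 3192, against 1925 to 3378 with a pair left out and 5 against the spread between lines. The correlation with the other lines (0.464) was 0.328 to 0.485 with a pair left out. The cause of these shifts was not tested, except that leaving out a pair leaves 3. Of 1378 values of named genes under an alternative, 1209 kept direction and side of the threshold, 137 lost the call, 18 gained one, 14 uncalled values changed sign and no called value reversed. The 4 pairs limit the precision, and signal over background is unknown.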

Other observations

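Some further values stand outside the comparisons above, all named after they were seen. The paired keratins of hepatocytes were both called higher: Krt8 averaged 11.81 ± 0.10 in TAK-875 mice and 11.01 ± 0.10 in vehicle mice (SD, n = 4 each, limma adjusted p = 0.0118), on a probe set that may cross-hybridise, and Krt18 averaged 11.46 ± 0.15 in TAK-875 mice and 10.63 ± 0.18 in vehicle mice (adjusted p = 0.00439). The groups overlapped in neither. In the other lines the mean responses were 0.32 for Krt8 and 0.23 for Krt18.

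Single mice stood far out in a few genes. Egr1, an immediate early transcription factor, had 5.59, 7.30, 5.54 and 10.66 in TAK-875 mice, against 6.16, 6.64, 4.66 and 4.77 in vehicle mice, with TAK-875 mouse 4 the highest, and its response of 1.71 was not called (adjusted p = 0.528). Saa2, an acute phase apolipoprotein, had 7.78, 8.57, 8.46 and 8.54 in TAK-875 mice, against 7.73, 6.87, 9.28 and 11.28 in vehicle mice, with vehicle mouse 4 the highest. Lcn2, an acute phase lipocalin also made by neutrophils, had 10.07, 8.93, 9.66 and 8.33 in TAK-875 mice, against 7.85, 7.44, 8.71 and 10.27 in vehicle mice, so it was higher with TAK-875 in pairs 1 to 3 and lower in pair 4. Cxcl1, a chemokine, had 6.86, 4.34, 6.51 and 5.55 in TAK-875 mice, against 4.14, 4.60, 4.18 and 4.69 in vehicle mice, and its response of 1.41 was not called (adjusted p = 0.459).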
